A study of Mus musculus with 6 samples.

Results

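Endothelial cells of the mouse adrenal gland were taken from the 2 adrenal libraries of a droplet single-cell RNA sequencing study of the hypothalamic-pituitary-adrenal axis. A barcode counted as endothelial if it held at least 200 genes, at most 25% mitochondrial UMIs and at least 5 UMIs of Pecam1, Plvap and Flt1 together. Barcodes with 0.1% or more of their UMIs from Cyp11b1, 5 or more UMIs of C1qa, C1qb and Csf1r, or 10 or more UMIs of Abcb1b were left out. The rule found 511 of 5513 adrenal barcodes, of 23083 barcodes in the whole series. UMIs (unique molecular identifiers) count captured RNA molecules, and levels are given as counts per 1000000 (CPM) of the UMIs summed over a library's endothelial barcodes.

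The groups used were adrenal, pituitary and PVN (extended paraventricular nucleus of the hypothalamus) after chronic social defeat stress, and the same tissues of unstressed controls. All mice were 10-week-old C57BL/6, and stressed mice had gone through 21 days of defeat by an aggressive mouse. Each library was made from the pooled tissue of 5 mice, and each tissue and condition had 1 library. The adrenal libraries held 33836656 UMIs in stress and 29059956 in control, and all 6 held from 29059956 to 53244403. Stress and control were compared without a test, and every interval on such a difference covers counting error only.

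Endothelial cells line blood vessels. In the adrenal gland a dense bed of capillaries with pored (fenestrated) walls runs from the capsule through the cortex to the medulla, so that nearly every steroid-producing cell touches one. Cholesterol carried by lipoproteins reaches the cortex through this wall, and corticosteroids leave through it. Plvap, a chosen marker here, forms the diaphragm of the pores.

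The stress library held 327 endothelial barcodes of 2805 kept (11.7%, exact Clopper-Pearson 95% interval 10.5 to 12.9). The control library held 184 of 2200 (8.36%, 7.24 to 9.60). Depth ran from 3303 to 36400 UMIs per barcode in stress and from 3545 to 41321 in control, with medians of 4624 and 5489. The files hold only barcodes above about these minimums, and 378 stress and 130 control adrenal barcodes exceeded the mitochondrial limit. At a marker sum of exactly 5, just inside the rule, were 5 stress barcodes and 0 control barcodes, and at a sum of 4, just outside, were 8 and 5. No endothelial barcode was shared between libraries.

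The label was checked against a list of 21 endothelial markers, the 3 used by the rule among them. Each marker was detected in both libraries, and their summed level was 12573 CPM in stress and 9847 CPM in control, against 184 and 134 CPM in all other adrenal cells. Those other cells include 37 stress and 23 control barcodes that reached the marker sum but were left out by the other limits. Markers of cortex cells were present as well. In 42 stress and 34 control barcodes, at least 0.6% of UMIs came from 8 cortex genes (Star, Cyp11a1, Hsd3b1, Cyp21a1, Mc2r, Nr5a1, Akr1b7 and Fdx1). These 76 barcodes were deep, with median depths of 15983 and 22712 UMIs against 4309 and 4981 in the rest, and held 34.5% of the endothelial UMIs in stress and 48.3% in control. Their summed endothelial marker level was 2697 and 1668 CPM, against 17776 and 17488 CPM in the other 435 barcodes. They carry both cell types' transcripts, and whether each is 1 cell or a pair of cells was not tested. Stress and control are compared below in all 511 barcodes and in the 435 low in cortex transcripts (285 stress and 150 control). The comparison of tissues uses all 511 unless the 435 are named or the barcodes with cortex transcripts are said to be left out. Near the limit, between 0.4% and 0.8%, lay 9 stress and 2 control barcodes.

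**Figure D1:**
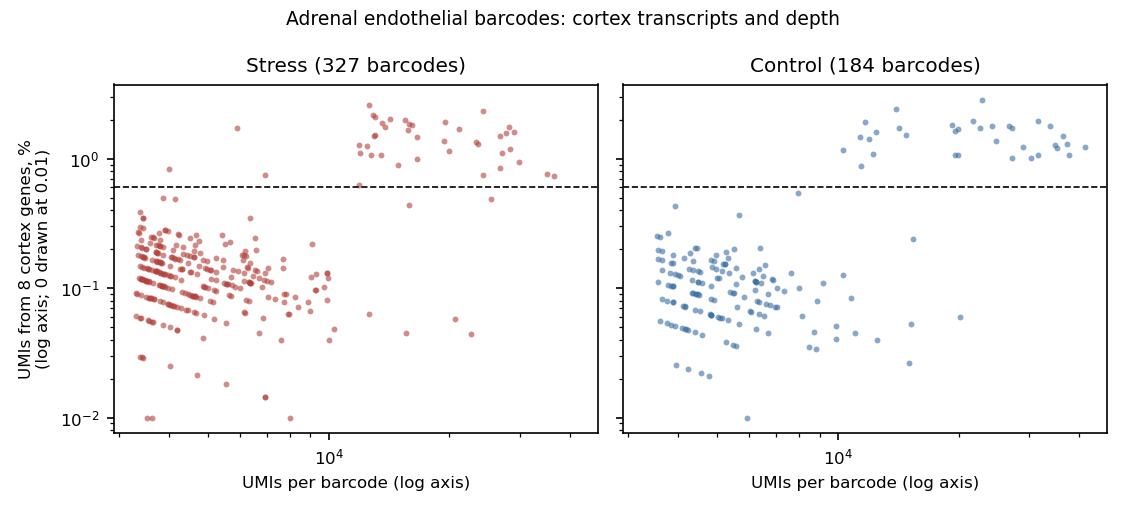
Each point is an endothelial barcode, with its UMIs on the x axis and the percentage of UMIs from 8 cortex genes on the y axis (both log axes), stress on the left and control on the right. The 42 stress and 34 control barcodes above the dashed line at 0.6% are mostly deeper than the 285 and 150 below it.

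The other cell types left smaller traces in the 435 barcodes. The 10 macrophage markers, which include those the rule limited, summed to 531 CPM in stress and 410.5 CPM in control, against 3448 and 2178 CPM in all other adrenal cells. Among them Lyz2 (lysozyme) stood at 118 and 15.2 CPM. The 9 pericyte and smooth muscle markers summed to 131 and 670 CPM, with 3 stress and 8 control barcodes at 5 or more UMIs. Chromaffin markers stood at 64.2 and 23.4 CPM. Lymphoid, fibroblast, glial and haemoglobin markers each summed to at most 65.5 CPM in either library. Of these lists, 3 of 5 erythroid markers in stress and all 5 in control were at 0.

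The vessel type was read from marker lists. Some of the 8 capillary markers stood high, with Rgcc at 4779 CPM in stress and 3317 CPM in control, Gpihbp1 at 1975 and 1297 CPM and Emcn at 2910 and 2680 CPM in the 435 barcodes. Rgcc is a regulator of the cell cycle found in capillary endothelium, Gpihbp1 carries lipoprotein lipase to the vessel wall, and Emcn (endomucin) coats capillaries and veins. Car4, a capillary marker of other organs, was at 0 UMIs in both libraries. Cd36 stood at 11.2 CPM over both libraries in all 511 barcodes. Aqp1 stood at 7.6 CPM in the 435 outside a cluster of 24 cells described below. The capillary list shares Plvap, Kdr and Emcn with the endothelial list, and Plvap with the rule, so its sum was not set against other lists. At least 5 UMIs of 9 arterial markers were found in 43 of 285 stress barcodes (15.1%) and 31 of 150 control barcodes (20.7%). For the 7 venous markers these were 78 (27.4%) and 48 (32.0%). The venous sum came from Nr2f2, Lrg1, Ephb4 and Vcam1, while Vwf stood at 0.68 and 4.68 CPM, Selp at 2.03 and 1.17 CPM and Ackr1 at 0. No barcode of the 435 held 5 UMIs of the lymphatic markers, which allows a share of up to 0.690% of barcodes past that minimum, whatever the share of lymphatic cells with fewer UMIs, and the lymphatic genes Mmrn1 and Reln were at 0.

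The 435 barcodes fell into 6 clusters, formed without the immediate-early, heat-shock and glucocorticoid-responsive genes. None was given a cell type name, and their leading genes are a description, since the same cells were clustered. The most distinct held 24 cells and was led by Aqp1, a water channel, at 5999.6 CPM against 7.6 CPM in the other clusters. Tspan8 followed at 1756 against 6.7 CPM, with Acta2 and Tagln, contractile proteins of smooth muscle. Of the marker lists, 7 of 9 arterial and 7 of 9 pericyte and smooth muscle genes stood at least 2-fold higher there than in the other clusters. So did 2 of 21 endothelial, 0 of 7 venous and 2 of 8 capillary genes, and the share of all genes doing so was not counted. Among its top 10 were 3 pericyte and smooth muscle genes. Acta2 UMIs were found in 9 of the 24 cells and Aqp1 UMIs in 21. A cluster of 88 cells was led by Car8, Bgn, Ptgs1 and Lrg1, with F8 (coagulation factor VIII) at 213.5 against 88.2 CPM. In a cluster of 93 cells Npr3, the clearance receptor for natriuretic peptides, stood at 569.5 against 127.9 CPM, Kitl (stem cell factor) at 449 against 144 CPM and Esm1 at 1272 against 492 CPM. A cluster of 46 cells was led by Msmp and Apln, and its apelin receptor Aplnr stood at 281 against 111.5 CPM. The remaining clusters held 75 and 109 cells. That of 75 was led by Cxcl10, Atf3 and Cxcl1, with Cxcl10 UMIs in 19 cells and Cxcl1 UMIs in 29. Its top 10 also held the immediate-early genes Fos, at 5099 against 911 CPM, and Egr1, at 1140 against 176 CPM. Such genes had been left out when the clusters were formed. The cluster of 109 was led by Stmn1, Cd74 and H2-Aa. The libraries were spread unevenly over the clusters. The cluster led by Stmn1 held 33.7% of stress and 8.67% of control cells, that led by Gimap3 and Npr3 16.5% and 30.7%, and that led by Aqp1 3.16% and 10.0%. With 1 library per condition, a cluster mostly of 1 library may be that library, and these shares are given only to stand beside the differences within the 435 barcodes.

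The comparison of stress with control asks what chronic defeat did to the transcripts of these cells. Genes with at least 50 UMIs over both libraries were used, and a gene was counted when its level differed by at least 1.5-fold. Of 7977 such genes, 10.6% passed that fold, 381 higher in stress (4.78%) and 464 lower (5.82%). In the 435 barcodes, 8.57% of 6044 genes passed it, 228 higher (3.77%) and 290 lower (4.8%). The median log2 ratio of all genes was 0.00 in both sets. Single genes were named by a rule with several filters. It took the 12 highest and 12 lowest ratios among genes with at least 100 UMIs and a UMI in 10% of cells of 1 library. The sign had to hold after thinning and with cells weighted equally, and the level in other adrenal cells could not exceed 2 times that of the endothelial cells. Extreme genes of the gene lists are given beside them. Larger ratios outside the filters included Lyz2 (2.59) and Chga (2.36), and on the low side Tagln (-3.71) and Mt2 (-2.10), markers of macrophages, chromaffin cells and smooth muscle and a metallothionein.

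The highest ratio among genes that passed these filters belonged to Sox18 (ENSMUSG00000046470, chromosome 2, 181669836 to 181671640, minus strand, GRCm38), a transcription factor of endothelial cells that acts in vessel and lymphatic development. Sox18 stood at 246 CPM in stress and 62.3 CPM in control, a difference of 1.98 on the log2 scale (95% interval 1.68 to 2.30). In the 435 barcodes it stood at 345 and 108 CPM, where the log2 ratio was 1.67 (1.36 to 2.02). It was found in 76.5% of stress and 44.0% of control cells, and in 59.3% and 30.0% when each cell was thinned to 3000 UMIs. Thinned cortex cells gave shares of 0.227% and 0, and macrophages 0.190% and 0. All other adrenal cells held 68 and 13 Sox18 UMIs, at 2.30 and 0.49 CPM. The log2 ratio there was 2.20, and subtracting it turned the Sox18 difference to -0.23. Those cells include the left-out barcodes with endothelial markers, and which of them held the Sox18 UMIs was not tested. The subtracted ratio therefore cannot be read as that of other cell types alone. The related factor Sox17 had log2 ratios of 0.21 in all barcodes and -0.14 in the 435, and Sox7 of 0.73 and 0.36. Sox18 was also higher in stress in pituitary and PVN endothelium, by log2 ratios of 0.52 (0.06 to 1.00) and 0.41 (0.13 to 0.69).

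The other 11 higher genes named by the rule were Pf4, Hist1h2ap, Rnase4, Helz2, Smc2, Csf1, Pnp, Gm11707, Xdh, Phf11b and Oit3. Each of the 12, Sox18 included, also passed 1.5-fold in the 435 barcodes. These are part of the 511 barcodes that picked the genes, so passing again is no separate support. In all other adrenal cells 7 of the 12 passed 1.5-fold higher. The median log2 ratio of all genes was 0.01 in those cells, and the share of all genes past that fold was not counted. Smc2, a condensin subunit of dividing cells, stood at 0.61 in the 435 barcodes and at 0.40, below that fold, without 4 dividing barcodes described next. Csf1, the growth factor of macrophages, stood at 104 CPM in stress and 58.5 CPM in control in the 435 barcodes (log2 ratio 0.82, 0.36 to 1.32), and its log2 ratio in all other adrenal cells was -0.20. Pnp, a purine salvage enzyme, stood at 251 and 134 CPM (0.90, 0.59 to 1.21). Helz2, a helicase known as an interferon target, stood at 54.8 and 32.7 CPM (0.73, 0.11 to 1.42). Pf4, a chemokine best known from platelets, stood at 73.0 and 33.9 CPM, and its log2 ratio in other adrenal cells was 0.96. Hist1h2ap and Stmn1 are genes of dividing cells, and 4 stress barcodes and 0 control barcodes held 5 or more UMIs of the proliferation markers. Stmn1, the leading gene of the cluster with 96 stress and 13 control cells, stood at 142 and 38.6 CPM in the 435 barcodes (log2 ratio 1.86), and at 84.3 and 38.6 CPM without those 4 (1.11). Hist1h2ap had a log2 ratio of 1.99 with them and -1.39 without them, from 5 and 8 UMIs.

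The 12 lower genes named by the rule were Nr4a1, Gm6133, G0s2, Erdr1, Rnd3, Cd27, Gem, Sppl3, Sparcl1, Vps8, Fat1 and Nr4a2. Nr4a1, an orphan nuclear receptor induced by ACTH in steroid-producing cells, stood at 102 CPM in stress and 324 CPM in control (log2 ratio -1.66, -1.89 to -1.44). In the 435 barcodes it stood at 57.5 and 78.4 CPM (-0.45, -0.93 to 0.04), while the 76 barcodes with cortex transcripts gave 187 and 587 CPM and cortex cells 188 and 544 CPM. Of the 12 genes, 7 passed 1.5-fold lower in the 435 barcodes. Gem and Nr4a2 turned to 0.56 and 0.10 there, and G0s2 and Fat1 stood at -0.14 and -0.50. Rnd3, which limits actin contraction, stood at 25.7 and 80.7 CPM in the 435 barcodes (-1.64, -2.26 to -1.06). Its log2 ratio was 0.31 in all other adrenal cells and -0.05 (-0.69 to 0.58) in PVN endothelium, and pituitary endothelium held 1 and 3 UMIs. Sparcl1, a matrix protein, stood at 52.1 and 147 CPM (-1.50), and without the 11 barcodes with pericyte or smooth muscle UMIs its log2 ratio was -0.68. In all other adrenal cells 7 of the 12 passed 1.5-fold lower as well, among them Nr4a1 (-1.26), Erdr1 (-0.95), Gm6133 (-0.92) and Cd27 (-0.87). The share of all genes past that fold in those cells was not counted.

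**Figure D2:**
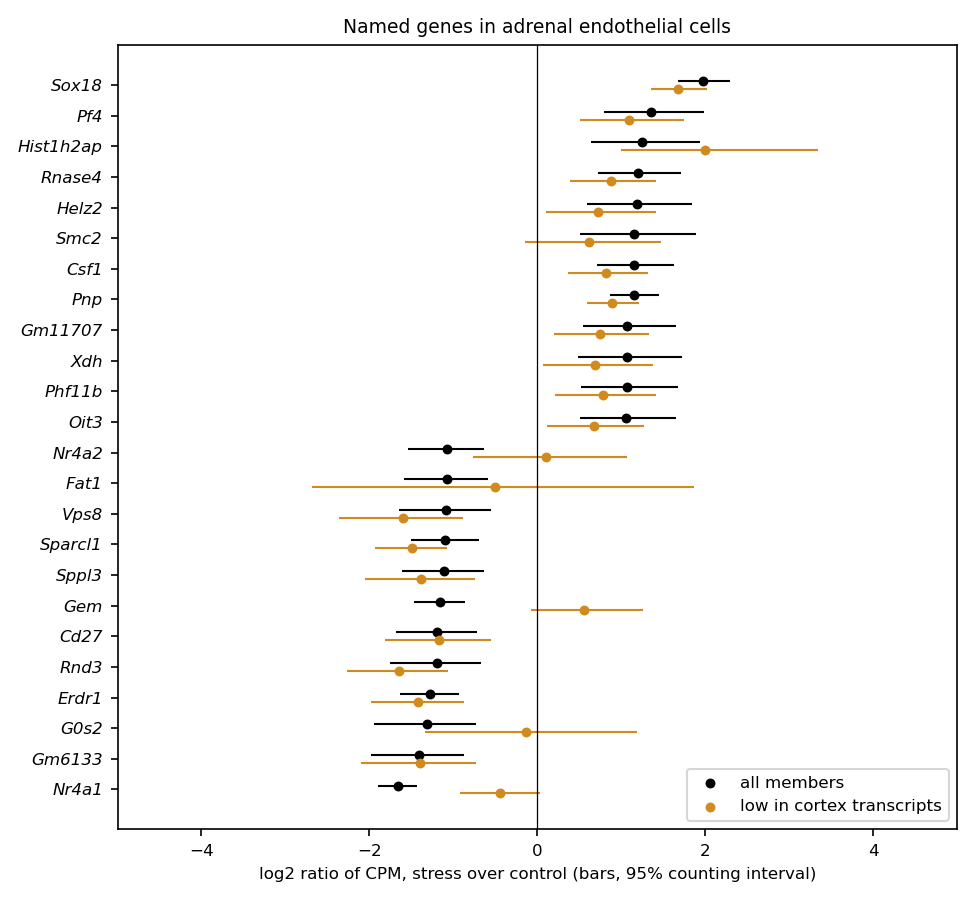
Log2 ratios of CPM, stress over control, of the 24 named genes, for all 511 barcodes (black) and the 435 low in cortex transcripts (orange), with 95% counting intervals as bars. Sox18 stands at 1.98 and 1.67, and Nr4a1 at -1.66 and -0.45.

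Heat-shock proteins are chaperones whose genes are switched on by heat and protein damage. In the 435 barcodes 11 of 12 heat-shock genes were higher in stress, 6 of them by 1.5-fold, with a median log2 ratio of 0.58, against 0.00 for all genes. In all 511 barcodes 10 of 12 were higher, 2 by 1.5-fold, with a median of 0.46. The share of all genes past that fold higher was 3.77% in the 435 and 4.78% in the 511. Hspa1a, the inducible HSP70, stood at 2554 CPM in stress and 1560.0 CPM in control in the 435 barcodes (log2 ratio 0.71, 0.62 to 0.80). Hspb1, the small chaperone HSP27, stood at 2825 and 1809 CPM (0.64). Hsph1, an exchange factor for HSP70, had the highest ratio, at 58.2 and 29.2 CPM (0.97, 0.34 to 1.70), and Dnajb1, a co-chaperone, stood at 289 and 161 CPM (0.84). Bag3 was the exception, at 61.5 and 65.5 CPM. Hspe1 and Hspd1, the mitochondrial chaperonin pair, had log2 ratios of 0.77 and 0.32 in the 435 barcodes and -0.30 and -0.09 in all 511. In all other adrenal cells Hspa1a and Hspb1 had log2 ratios of 0.13 and 0.04. The list was also higher in stress in pituitary endothelium (11 of 11 genes, 10 by 1.5-fold, median 0.75) and in PVN endothelium (10 of 12, 3 by 1.5-fold, median 0.37). Of all genes, 5.78% passed that fold higher in the pituitary (229 of 3963, median 0.06) and 1.61% in the PVN (146 of 9089, median -0.05).

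Promoters of heat-shock genes are shown because heat shock factor binds them at repeats of GAA and TTC. Windows of 300 bases (250 before to 50 after the start, RefSeq, GRCm38.p6) were searched on both strands for 3 alternating repeats of GAA and TTC, each 2 bases apart, starting with either. Of the 12 genes, 9 had an entry and 3 held a match (Hsph1, Hspd1 and Hspe1), and 198 of all 32851 windows held one (0.603%). The windows of Hspa1a and Hsph1, the highest ratios in the 511 and the 435 barcodes, follow with that of Hspe1, whose 2 matches overlap. Capitals mark matched bases, and Hspa1a has no exact match. Repeats that differ in a base or in spacing were not searched for, so this does not show that its window lacks an element.
Hsph1, chr5:149636287-149636586, minus strand: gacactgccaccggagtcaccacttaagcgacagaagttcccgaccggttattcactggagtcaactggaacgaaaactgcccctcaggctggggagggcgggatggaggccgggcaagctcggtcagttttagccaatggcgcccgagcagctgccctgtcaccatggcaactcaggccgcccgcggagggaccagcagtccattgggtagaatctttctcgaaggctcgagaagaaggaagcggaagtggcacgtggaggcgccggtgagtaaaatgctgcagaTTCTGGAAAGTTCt
Hspe1, chr1:55087898-55088197, plus strand: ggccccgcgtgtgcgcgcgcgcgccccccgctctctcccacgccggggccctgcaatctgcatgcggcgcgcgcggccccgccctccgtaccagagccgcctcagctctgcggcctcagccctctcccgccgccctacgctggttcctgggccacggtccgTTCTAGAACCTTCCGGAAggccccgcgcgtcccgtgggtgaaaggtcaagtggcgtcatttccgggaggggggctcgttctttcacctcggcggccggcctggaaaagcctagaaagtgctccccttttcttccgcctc
Hspa1a, chr17:34972107-34972406, minus strand: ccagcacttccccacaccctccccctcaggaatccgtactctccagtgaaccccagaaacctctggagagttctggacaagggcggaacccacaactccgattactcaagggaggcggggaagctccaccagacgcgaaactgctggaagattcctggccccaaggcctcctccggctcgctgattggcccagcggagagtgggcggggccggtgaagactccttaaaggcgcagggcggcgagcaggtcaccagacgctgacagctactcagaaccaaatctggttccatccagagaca
The Hsph1 match lies at bases 287 to 299 of its window, just after the start. Those of Hspe1 lie at bases 162 to 174 and 167 to 179, and the same bases on the other strand fall in a window of Hspd1, which is transcribed away from Hspe1.

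Immediate-early genes, the transcription factors induced within minutes of a stimulus, gave no common direction. Of 15 measured, 9 were higher and 6 lower in the 435 barcodes (median 0.05), with 1 past 1.5-fold each way. Fos stood at 1733 CPM in stress and 1662 CPM in control there, Jun at 2917 and 2877 CPM and Egr1 at 325 and 419 CPM. Ier3 was lowest, at 108 and 163 CPM (log2 ratio -0.59), and Myc highest, with 38 and 12 UMIs (0.83, -0.09 to 1.94). In all 511 barcodes 6 were higher and 9 lower (median -0.08). In pituitary endothelium all 12 measured were higher in stress, 9 by 1.5-fold (median 0.89), against the 5.78% of all genes there. The window of Klf6, the highest in all 511 barcodes at 0.23, held neither TGANTCA, the AP-1 site (7.81% of all windows), nor TGACGTCA, the cAMP element (1.79%).

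Corticosteroids reach these cells at their source. Nr3c1, the glucocorticoid receptor, stood at 98.7 CPM in stress and 108 CPM in control in the 435 barcodes. Nr3c2, the mineralocorticoid receptor, stood at 1.35 and 3.51 CPM, and Hsd11b2, which inactivates corticosterone, at 0.68 and 0 CPM. Of 13 glucocorticoid-responsive genes measured in the 435 barcodes, 5 were higher and 8 lower (median -0.03). Fkbp5, a chaperone partner of the receptor that its own signal induces, was the 1 gene past 1.5-fold, at 186 and 122 CPM (log2 ratio 0.61, 0.28 to 0.95). Its log2 ratio was -0.07 in all other adrenal cells. Tsc22d3 (GILZ) stood at 340.2 and 341.5 CPM, Sgk1 at 859.5 and 749.6 CPM and Ddit4 at 211 and 308 CPM (-0.54). In all 511 barcodes Zbtb16 was highest, at 18.2 and 9.07 CPM (0.97), and Mt2 lowest, at 20.8 and 90.1 CPM (-2.10). The Mt2 difference lay in the barcodes with cortex transcripts, at 24.4 and 170.3 CPM, and in the 435 it stood at 18.9 and 15.2 CPM. The glucocorticoid element, AGAACA and TGTTCT with 3 bases between them, was not in the Fkbp5 window, and 3 of all windows held it (0.00913%). Errfi1 was lowest in the 435 barcodes, at 39.2 and 58.5 CPM (-0.58).

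Genes of lipid and lipoprotein handling, uptake and export alike, had positive medians. In the 435 barcodes 7 of 8 measured were higher, 3 by 1.5-fold (median 0.30). Among all genes 3.77% passed that fold higher there and 4.78% in the 511. In all 511, 8 of 11 were higher, with 4 past 1.5-fold higher and 1 lower (median 0.42). That gene, Abca1, a cholesterol exporter, stood at 12.4 and 22.4 CPM (-0.84), and with 11 and 19 UMIs it was below the minimum in the 435. Gpihbp1 had a log2 ratio of 0.61 (0.51 to 0.71), and Fabp4, a fatty acid carrier of capillaries, stood at 5358 and 3505 CPM (0.61, 0.55 to 0.67). Abcg1, another cholesterol exporter, was highest, at 35.8 and 19.9 CPM (0.82, 0.04 to 1.73), and Pltp lowest, at 73.7 and 104 CPM (-0.50). Scarb1, the receptor for high-density lipoprotein, stood at 302 and 257 CPM. Gpihbp1 and Fabp4 had log2 ratios of 1.39 and 1.31 in all other adrenal cells, which include the left-out barcodes with endothelial markers. Without the barcodes with pericyte or smooth muscle UMIs they were 0.48 and 0.52.

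Of 16 genes of basement membrane and matrix in the 435 barcodes, 11 were higher and 5 lower, but 2 passed 1.5-fold each way (median 0.28). In all 511, 14 of 17 were higher, with 4 past 1.5-fold higher and 2 lower (median 0.29). For all genes these shares were 3.77% higher and 4.8% lower in the 435, and 4.78% and 5.82% in the 511. Adamts1, a protease of matrix proteoglycans, stood at 474 CPM in stress and 309 CPM in control in the 435 barcodes (log2 ratio 0.62), Bgn at 206 and 140 CPM (0.55) and Sparc at 2235 and 1792 CPM (0.32). The type IV collagen Col4a1 stood at 381 and 305 CPM (0.32), and Lama5 was highest, at 0.74 (-0.03 to 1.63). Col18a1 stood at 18.9 and 42.1 CPM (-1.15), and Sparcl1, described above, was lowest.

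Interferon and antigen presentation genes were all higher in the 511 barcodes (19 of 19, 4 by 1.5-fold, median 0.49), and 15 of 19 in the 435 (1 by 1.5-fold, median 0.19). Past that fold higher were 4.78% of all genes in the 511 and 3.77% in the 435, so 1 of 19 is near the share of all genes. Isg15, a ubiquitin-like protein induced by interferon, stood at 404 CPM in stress and 249 CPM in control in the 435 barcodes (0.69, 0.47 to 0.93), Ifit3 at 227 and 158 CPM (0.52) and Irf7 at 195 and 138 CPM (0.49). The class II gene Cd74 was lower, at 193 and 265 CPM (-0.46). Their log2 ratios in all other adrenal cells were 0.58, 0.90 and 0.75, and 0.46 for Cd74. Of 9 endothelial activation genes, 4 were higher and 5 lower in the 435 barcodes (median -0.05). Csf1 was the highest and Cxcl10, a chemokine for T cells, the lowest, at 34.5 and 66.7 CPM (-0.95, -1.52 to -0.38). In the cluster of 75 cells Cxcl10 stood at 207 CPM, from 19 cells, against 8.47 CPM in the other clusters. That cluster held 15.1% of stress and 21.3% of control cells. Nfkbia, the inhibitor of NF-kB, stood at 556 and 823 CPM (-0.57).

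Arterial genes were lower in the 435 barcodes, 5 of 5 measured and 3 by 1.5-fold (median -0.80), and 3 of 5 in all 511 (median -0.36). In the 435 barcodes 4.8% of all genes passed that fold lower. Sema3g stood at 43.3 CPM in stress and 92.4 CPM in control (log2 ratio -1.09, -1.59 to -0.60), Efnb2 at 96.7 and 168 CPM (-0.80) and Gja4 at 53.4 and 101 CPM (-0.91). Without the barcodes with pericyte or smooth muscle UMIs, Sema3g and Efnb2 stayed at -1.14 and -0.85 and Gja4 at -0.27. In summed counts such as these, fewer arterial cells and less RNA per arterial cell cannot be told apart. The Aqp1 cluster, with most of the arterial list at least 2-fold higher, held 9 of 285 stress cells (3.16%) and 15 of 150 control cells (10.0%). Cav1, the coat protein of caveolae, stood at 55.5 and 98.2 CPM (-0.82, and -0.58 without those barcodes), and 5 of 8 caveola genes were lower (median -0.31; all 511, 4 of 8, median 0.01). Crip1 and Tpm1, among the lowest genes in the 435 barcodes at -1.11 and -1.14, stood at -0.18 and -0.01 without them.

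**Figure D3:**
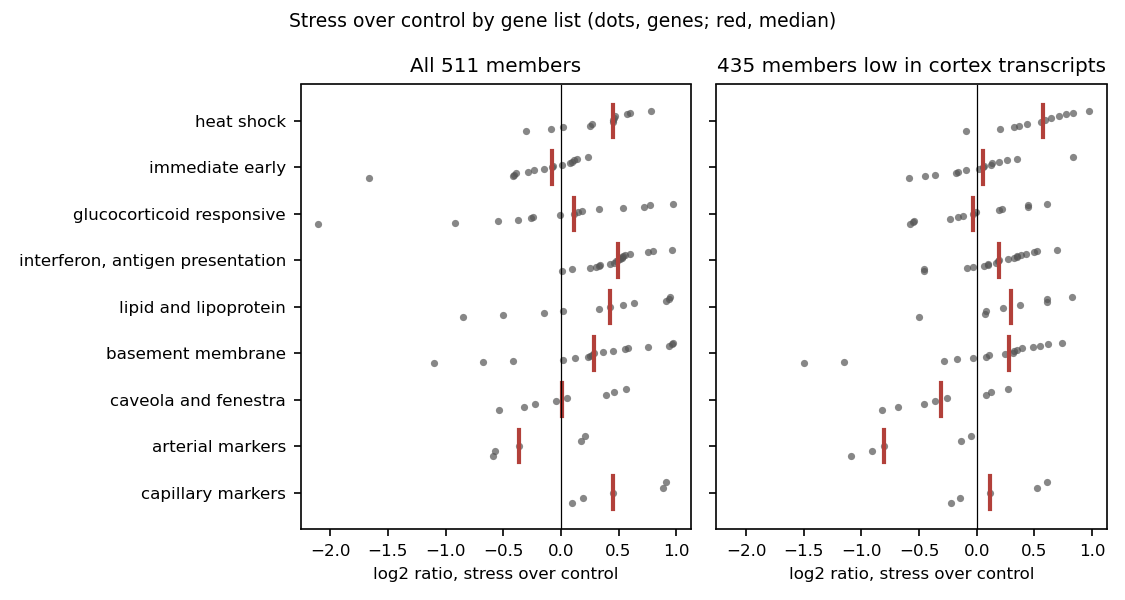
Log2 ratios, stress over control, of the measured genes of 9 lists (grey dots, red bars at the medians), for all 511 barcodes on the left and the 435 low in cortex transcripts on the right. The heat-shock median stands at 0.46 and 0.58 and the arterial median at -0.36 and -0.80.

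Signalling genes had different medians in the 511 and the 435 barcodes. In all 511, 16 of 19 VEGF, angiopoietin, apelin and Notch genes were higher, 3 by 1.5-fold (median 0.15), as were 11 of 13 haemostasis and flow genes, 4 by 1.5-fold (median 0.24), and 17 of 18 endothelial markers, 3 by 1.5-fold (median 0.33). Past that fold higher were 4.78% of all genes in the 511. These ratios also carry the unequal share of barcodes with cortex transcripts. In the 435, without those barcodes, the medians lay closer to that of all genes. Of 16 VEGF, angiopoietin, apelin and Notch genes in the 435 barcodes, 6 were higher and 10 lower (median -0.06). The VEGF receptor Kdr stood at 1068 CPM in stress and 1248 CPM in control (log2 ratio -0.22, -0.34 to -0.11) and Tek, the angiopoietin receptor, at 344 and 427 CPM (-0.31). Adm (adrenomedullin), a vasodilator peptide, was highest, at 38.5 and 19.9 CPM (0.93, 0.15 to 1.83). Vegfc was lowest, at 18.9 and 32.7 CPM (-0.79, -1.60 to 0.02). Of 12 haemostasis and flow genes, 6 were higher and 6 lower (median 0.00). The flow-responsive factor Klf4 stood at 377 and 257 CPM (0.55), and Thbd (thrombomodulin), an anticoagulant receptor, at 216 and 295 CPM (-0.45). Procr, the protein C receptor, was lowest at 58.8 and 84.2 CPM (-0.52). Smad1, a mediator of bone morphogenetic protein signals, stood at 103.5 and 58.5 CPM (0.81), and its inhibitor Smad6 at 18.3 and 33.9 CPM (-0.89). Erg, an endothelial transcription factor, stood at 110.2 and 188.3 CPM (-0.77, -1.10 to -0.45), the lowest of 18 endothelial markers, whose median was 0.03. The nuclear-encoded respiratory genes had a median of -0.01 over 13 genes. Of 12 junction and adhesion genes, 4 were higher and 8 lower (median -0.10), with Icam2 highest at 0.22. Of 11 genes of the unfolded protein response, 6 were higher and 5 lower (median 0.03), from Herpud1 at 0.41 to Creld2 at -0.40. In the 435 barcodes none of the junction, unfolded protein or respiratory genes passed 1.5-fold, and in all 511 Herpud1 did (0.65).

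The adrenal endothelium was then set against that of the pituitary (137 stress and 116 control barcodes) and the PVN (297 and 250), chosen by the same rule. Summed counts of the 6 libraries were compared with edgeR's quasi-likelihood test, with condition as a term and Benjamini-Hochberg adjustment (FDR). Between the adrenal and the mean of both other tissues 18.4% of 11776 genes passed an FDR of 0.05 with a 2-fold difference, 1041 higher in the adrenal (8.84%) and 1130 lower (9.6%). That mean is of log levels, so a gene very low in either tissue can be called higher though the adrenal stands below the other. Against the pituitary alone 14.9% passed (7.93% higher and 7.01% lower) and against the PVN alone 28.2% (10.3% higher and 17.9% lower), and these contrasts share the adrenal libraries. The adrenal sums held all 511 barcodes, those with cortex transcripts among them. In each contrast 9 of 9 cortex markers tested were called higher (median log2 fold change 10.3 over the mean of both tissues). The genes counted as higher in the adrenal thus include markers of cortex cells. Tissue and dissociation cannot be told apart, since adrenals were treated with collagenase and the other tissues with papain. For genes at 0 in a group, folds are lower bounds against a floor of 3 UMIs summed over both libraries of that tissue. Named genes were those with the largest fitted change that separated the adrenal libraries from the other 4 and were enriched in endothelium.

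Higher in the adrenal were Sult2b1, Cldn15, Cyp4b1, Gpihbp1, Esm1, Tspan8, Scin, Btnl9, Gimap3 and 3 predicted genes (Gm14226, Gm37350 and Gm16118). Gpihbp1 stood at 1390.3 and 737 CPM in adrenal stress and control, at 471 and 417 CPM in the pituitary and at 0 in the PVN (FDR 3.2e-12). That was 2.50-fold over the pituitary (counting interval 2.29 to 2.73) and at least 1672-fold over the PVN. In the 435 barcodes low in cortex transcripts Gpihbp1 stood higher, at 1975 CPM in stress and 1297 CPM in control. Esm1 (endocan), a proteoglycan of growing capillaries, stood at 508 and 373 CPM in the adrenal, 128 and 111 CPM in the pituitary and 0 in the PVN (FDR 1.09e-12). Cyp4b1, a fatty acid hydroxylase of the cytochrome P450 family, stood at 298 and 201 CPM in the adrenal, 30.9 and 11.6 CPM in the pituitary and 0 in the PVN (FDR 3.55e-12).

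Sult2b1 (ENSMUSG00000003271, chromosome 7, 45729983 to 45784669, minus strand, GRCm38), a sulfotransferase that acts on cholesterol and steroids, stood at 63.3 and 31.4 CPM in adrenal stress and control and at 0 in the 4 other libraries. Its level was at least 21.9-fold that of the pituitary and 74.8-fold that of the PVN (FDR 1.05e-08), and with DESeq2 the call was lost (adjusted p = 0.169). Scin and Gm37350 also lost their calls with DESeq2 (adjusted p = 0.151 and 0.330). Cldn15, a claudin that forms cation pores in epithelia, stood at 105 and 75.0 CPM in the adrenal, 0 in the pituitary and 0.43 and 1.37 CPM in the PVN (FDR 2.54e-10). Tspan8 and Scin were among the leading genes of the 24-cell cluster with Aqp1, and Esm1, Gimap3 and Gm14226 among those of the 93-cell cluster. Of 7 capillary markers tested, 5 were called higher and 1, Car4, lower (median log2 fold change 1.64). Fabp4 was called higher, with a log2 fold change of 6.49 ± 0.14 (SE, FDR 3.23e-15).

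**Figure D4:**
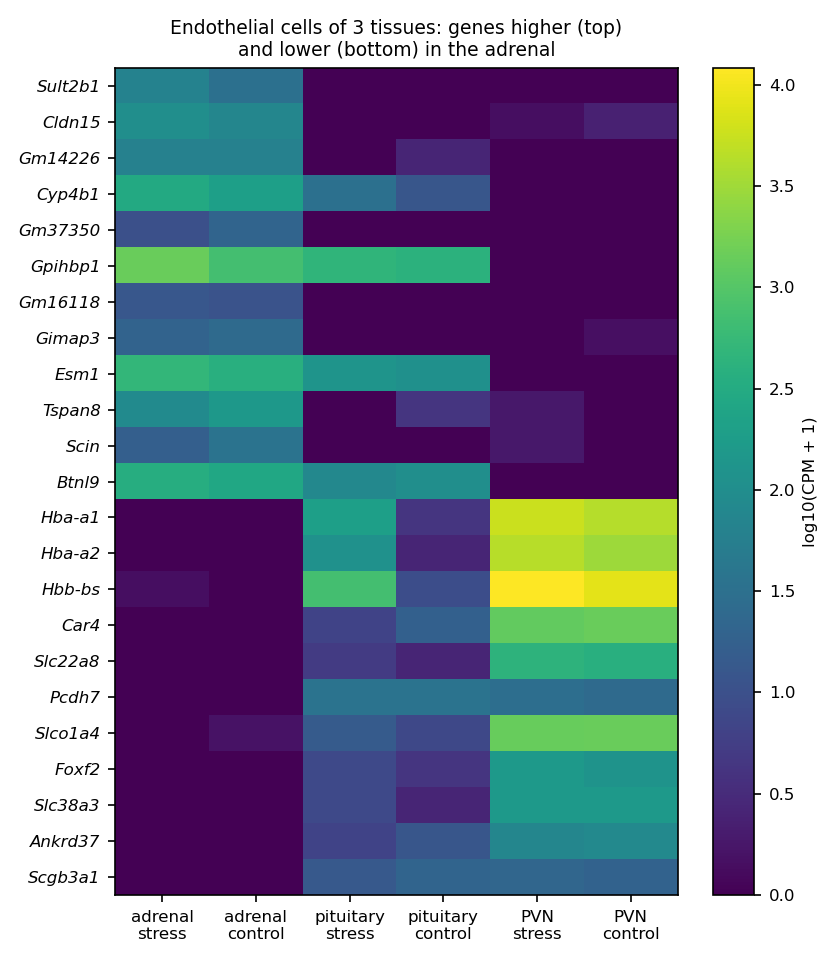
Levels as log10(CPM + 1) in endothelial cells of the 6 libraries for the 12 named genes higher and 11 of those lower in the adrenal (rows), adrenal first. Car4 is dark in both adrenal columns, at 0 CPM, and bright in both PVN columns.

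The lower genes were led by the haemoglobin genes Hba-a1, Hba-a2 and Hbb-bs, which belong to red blood cells. Hba-a1 was at 0 in both adrenal libraries, at 204 and 3.31 CPM in pituitary stress and control and at 5722 and 4294 CPM in the PVN. All other PVN cells held 1003 and 198 CPM of Hba-a1, and the part of red blood cells in this difference was not tested. They were followed by Car4, Slc22a8, Pcdh7, Slco1a4, Foxf2, Slc38a3, Ankrd37 and Scgb3a1. Car4, a carbonic anhydrase on capillary walls, was at 0 in both adrenal libraries, 5.62 and 16.5 CPM in the pituitary and 1270.4 and 1388 CPM in the PVN (FDR 2.26e-08). Slco1a4, an organic anion carrier of the blood-brain barrier, stood at 0 and 0.60 CPM in the adrenal, 14.1 and 6.61 CPM in the pituitary and 1372 and 1430.4 CPM in the PVN. Foxf2, a transcription factor that maintains the brain barrier through pericytes, was at 0 in both adrenal libraries.

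Of 19 barrier and transport genes, 12 were called lower in the adrenal than in the mean of the other tissues and 1 higher (median log2 fold change -2.81, against 0.00 for all genes). Against the PVN alone 17 were lower and 1 higher, and against the pituitary alone 7 lower and 2 higher. Slc2a1, the glucose carrier GLUT1, stood at 15.1 and 15.7 CPM in the adrenal, 22.5 and 26.5 CPM in the pituitary and 1704 and 1584 CPM in the PVN. Against the pituitary it was not called (log2 fold change -0.75, FDR 0.0771). Itm2a was at 16.8 and 13.3 CPM in the adrenal, and at 1699.5 and 1576 CPM in the pituitary (log2 fold change -6.83, FDR 1.53e-14). Slco2a1, a prostaglandin carrier, was the gene called higher than the mean, at 23.0 and 35.1 CPM in the adrenal, 57.6 and 41.3 CPM in the pituitary and 1.72 and 2.29 CPM in the PVN. Its adrenal level was below that of the pituitary, and the call came from its low level in the PVN. The tight junction protein Cldn5 stood at 462 and 423 CPM in the adrenal, 582 and 160.4 CPM in the pituitary and 5833 and 5347 CPM in the PVN. Nr3c1 was lower in the adrenal, by a log2 fold change of -1.03 ± 0.13 (SE, FDR 1.57e-05), and by -0.47 without the barcodes with cortex transcripts.

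**Figure D5:**
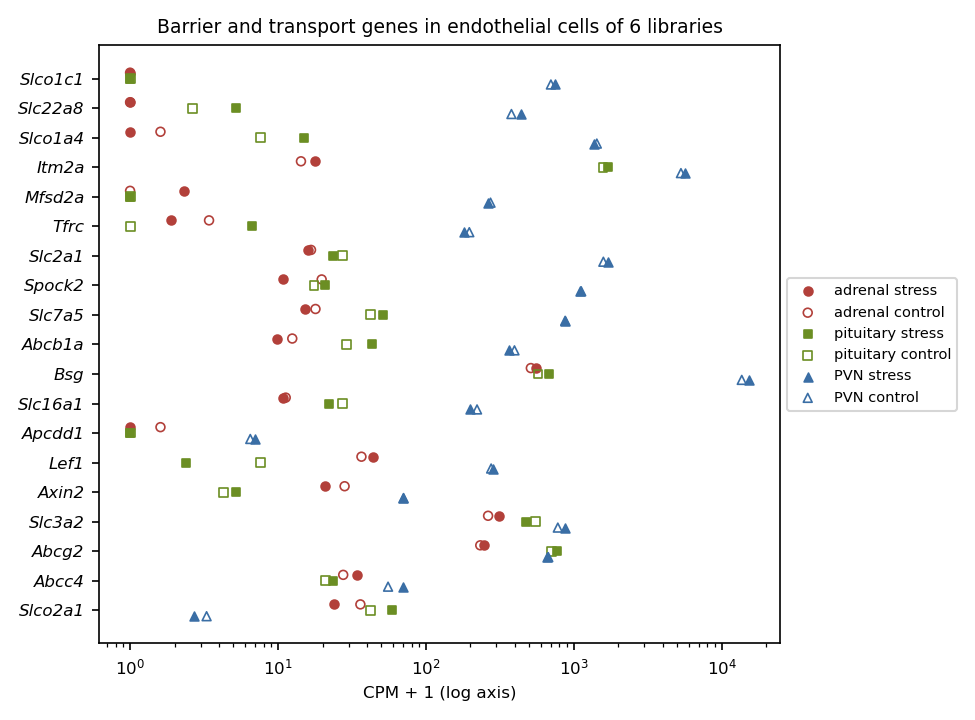
CPM + 1 (log axis) of 19 barrier and transport genes in endothelial cells of the adrenal (red circles), pituitary (green squares) and PVN (blue triangles), filled for stress and open for control. Slco1c1 and Slc22a8 lie at 0 CPM in both adrenal libraries, and Slco2a1 is the gene with the PVN symbols on the left.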

How the data were processed

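Per the labels' protocols, adrenal glands were dissociated with collagenase II and loaded on the 10x Genomics platform (v2 chemistry), stress and control of a tissue on 1 chip. What the authors deposited for each library is a matrix of raw UMI counts. The submitters' processing notes list mm10, Cell Ranger 2.1.1 and, without a version, Scanpy. No source used here gives strand or annotation settings. The members and gene lists were chosen with earlier results of these data known.

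UMI counts were summed per library, and log2 ratios had 0.5 UMI added to each sum and exact Poisson (conditional binomial) 95% intervals. PCR was handled by the UMIs, and intervals and floors cover counting error only. Named stress genes had at least 100 UMIs, a UMI in 10% of cells of 1 library, the same sign with cells thinned to 3000 UMIs and with cells weighted equally, and a level in other adrenal cells not over 2 times that of the members. The rule genes and mitochondrial genes were left out. Doublets were not removed in the main results; leaving out the highest scores (6 stress and 5 control members) is an alternative.

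Tissue tests used edgeR 4.0.16 (TMM, filterByExpr, 2 residual degrees of freedom), with DESeq2 1.42.0 as alternative. The pools of a tissue differ in condition, and nothing says how pools of 1 condition would vary, so p-values measure the spread between these libraries. On simulated data with 11226 genes the adrenal comparison recovered 94 of 100 genes changed by 2-fold and 100 of 100 changed by 4-fold, with 17 false calls. These simulated calls used the FDR limit alone, without the 2-fold limit of the reported counts. Only genes above a minimum level were changed, and all genes were given the same spread. The recovery therefore does not measure that of the rule with both limits. Named tissue genes were the 12 largest changes each way that separated the libraries and were at least 2 times higher in endothelium than in other cells of that tissue. Clusters used scanpy 1.11.5 (1000 genes, 15 components, 15 neighbours, Leiden resolution 0.6). Coordinates came from GENCODE on GRCm38 (mm10), matched by gene ID. A few genes that the naming rules chose are not reported here.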

Additional observations from a re-analysis of the deposited data

Results flagged for a closer look

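Dbp, a transcription factor with a daily rhythm, moved oppositely in the 511 adrenal barcodes and in pituitary endothelium, and the difference between them was not tested. It stood at 76.2 CPM in stress and 30.8 CPM in control in the 511 adrenal barcodes (log2 ratio 1.29), and at 121 and 202 CPM in pituitary endothelium (-0.74). In all other adrenal cells it stood at 197 and 66.2 CPM (1.57), and in the 435 barcodes at 18.9 and 7.02 CPM.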

How the results depend on the processing

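No paired analysis was possible because each tissue and condition had 1 library and the labels carry no pairing. The counts of genes past 1.5-fold moved with the genes measured: with cells thinned to 3000 UMIs they were 212 higher and 248 lower, with at least 20 UMIs 660 and 913, without the barcodes with cortex transcripts 228 and 290, and without those with pericyte or smooth muscle UMIs too 211 and 232. Without the barcodes with cortex transcripts the shares of endothelial barcodes were 10.2% in stress and 6.82% in control. Both sets were chosen after seeing the data. The median of macrophage genes turned to -0.13 when the ratio in other adrenal cells was subtracted, and Sox18 to -0.23. The pericyte median turned to 0.44 without cells with arterial, venous or lymphatic marker sums of 5 or more UMIs. Without the cortex barcodes Gem was 0.56 and Nr4a2 0.10, and without pericyte UMIs too Gem was 0.55 and G0s2 0.79. The causes were not tested. In the tissue comparison the counts stayed within 1.5 times, from 706 (DESeq2) to 1161 (no filter on low counts) higher and from 841 (marker minimum of 10 UMIs) to 1210 lower (no filter). Leaving out each library gave 975 to 1061 higher and 975 to 1071 lower.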
